A study of Arabidopsis thaliana with 9 samples.

Results

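The comparison described here set seedlings labelled emb1579-1, a mutant line of Arabidopsis thaliana, against seedlings of the wild-type accession Col-0, across all nuclear genes. It used 5 of the 9 RNA sequencing libraries of the study, 3 of emb1579-1 and 2 of Col-0. Col-0 replicate 3 was kept only as a check, and the 3 libraries of a second allele, emb1579-3, were not used. Both genotypes were grown alike, as whole seedlings on diluted Murashige and Skoog medium, with 3 days of stratification and collection after 6 days at 20 °C, and neither was given a treatment. The labels state no lesion for emb1579-1 and no transgene, and they call the libraries of a genotype biological replicates.

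EMB1579, also called RSA1, codes for a large nuclear protein that is needed for embryo development and was also found through root growth on salt medium. Nuclear proteins of this kind are known to act on transcription and on RNA processing. The study's title places the protein in the control of stem cell genes in the root meristem, the dividing tip from which the root grows. In whole seedlings the meristem is a small share of the tissue, and fewer cells of a type cannot be told apart from less RNA per cell.

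The values were counts per gene. The table held 33602 loci, of which 33323 were nuclear, and 20230 nuclear loci had enough counts to be tested. Library totals were 24.1, 27.5 and 24.1 M counts in emb1579-1 and 33.5 and 37.5 M counts in Col-0, with 45.8% to 49.6% of counts on chloroplast and mitochondrial genes. The log2 values of the 5 libraries correlated across genes with a Pearson r of at least 0.971. Col-0 replicate 3 held 1.18 M counts, correlated with the others at no more than 0.372 and placed 65.9% of its nuclear counts on genes that overlap a gene of the opposite strand, against 27.5% to 28.3% in the other 5. Col-0 replicate 2 had a count at 95.1% of nuclear loci, against 69.3% to 71.7% in the other 4 libraries, and 5568 loci had counts in that library only, with a median of 5 counts. As for seedling identity, 35 of the 36 root markers and 46 of the 49 shoot markers found in the table were abundant enough to test. Only 3 of 24 seed storage genes and 6 of 20 pollen genes were, and no gene of those last lists passed the test. Summed seed storage levels were 12.2 CPM in Col-0 replicate 2, 2.52 CPM in Col-0 replicate 1 and 3.52 to 4.18 CPM in emb1579-1. Those of pollen genes were 26.4, 18.9 and 17.6 to 20.4 CPM in the same order.

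The transcript of the mutated gene itself, emb1579 (AT2G03150, chromosome 2), did not differ detectably between the genotypes. It stood at 90.9, 93.8 and 91.7 CPM (nuclear counts scaled to 1e6 per library, with TMM factors) in emb1579-1, against 93.0 and 94.4 CPM in Col-0. The log2 fold change was -0.02 (SE 0.08), with an edgeR quasi-likelihood adjusted p of 0.884. Gene-level counts over the whole locus do not check a point mutation or an insertion that leaves the transcript's amount as it was, so the genotype of these libraries rests on the labels. Of the 133 tested genes within 500 kb on either side of the locus, 11 were higher and 18 lower. Together that was 21.8%, against 16.7% of all tested genes.

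Across the nuclear genome, 1575 genes were higher and 1809 lower in emb1579-1 at an adjusted p below 0.05, which is 7.79% and 8.94% of the genes tested and 16.7% together. All of them had every emb1579-1 library on the same side of both Col-0 libraries, but so did many genes that were not called: of all tested genes, 22.6% lay wholly above and 22.6% wholly below. The median called fold was 1.45 among the higher genes and 1.58 among the lower ones, so most changes were modest. At least 2-fold changes numbered 311 upward and 550 downward, or 1.54% and 2.72% of the tested genes, and 4-fold changes 76 and 131. The genes called higher took 13.3% to 13.8% of the tested counts in emb1579-1 and 9.03% to 9.36% in Col-0. The genes called lower took 12.2% to 12.6% in emb1579-1 and 16.9% to 17.3% in Col-0. The number of calls depended on single libraries: without Col-0 replicate 1 there were 1026 higher and 2829 lower genes, without Col-0 replicate 2 970 and 1166, and without emb1579-1 replicate 3 930 and 1013. No gene was called in the opposite direction in any of these fits.

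**Figure D1:**
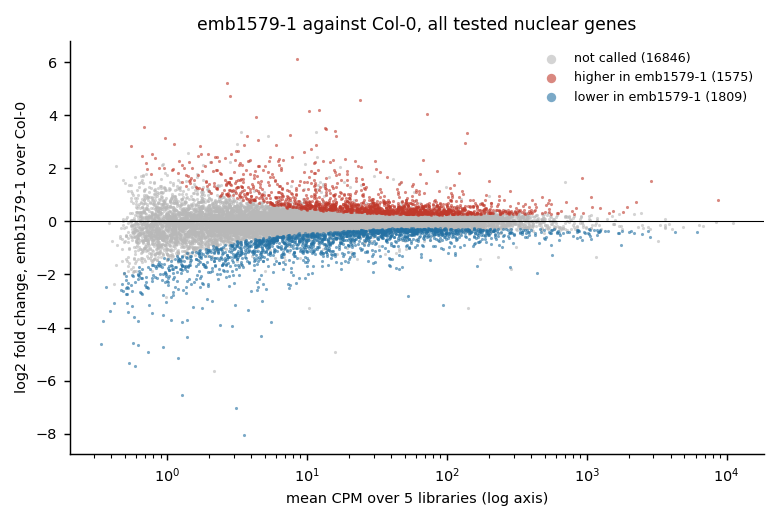
Log2 fold change of emb1579-1 over Col-0 (vertical axis) against the mean CPM over the 5 libraries (horizontal log axis) for 20230 nuclear genes, with 1 point per gene. The 1575 genes called higher (red) and 1809 called lower (blue) are spread over all expression levels, and the largest changes, down to a log2 fold change of -8.04, lie among genes of low mean CPM.

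The largest increases were in loci without a symbol: AT2G01422, a non-coding RNA, with a log2 fold change of 6.10, and the coding genes AT3G29633 (5.21) and AT2G18190 (4.72). Among called genes with a symbol, a mean of at least 2 CPM and no overlap with another gene, the 10 highest fold changes included defensins, a lipid transfer protein and enzymes of jasmonate and phosphate metabolism. DIN11, an oxygenase gene known from darkened leaves, had 12.8, 20.9 and 25.7 CPM in emb1579-1 and 0.369 and 1.66 CPM in Col-0, a log2 fold change of 4.22 (SE 0.62, edgeR adjusted p = 0.019). PDF1.3, a plant defensin, had 20.3, 29.5 and 24.8 CPM in emb1579-1 against 2.34 and 2.33 CPM in Col-0, a log2 fold change of 3.41 (SE 0.19, edgeR adjusted p = 4.8e-08). DIN11 varied more between libraries than PDF1.3 and missed the threshold without emb1579-1 replicate 2 (adjusted p = 0.098). QQS, a gene found only in Arabidopsis thaliana that is linked to starch content, had 13.3, 14.9 and 14.7 CPM in emb1579-1 and 3.51 and 1.29 CPM in Col-0 (log2 fold change 2.61, SE 0.31). AOC1, an allene oxide cyclase of jasmonate synthesis, had 29.9, 24.4 and 28.1 CPM in emb1579-1 and 6.52 and 4.35 CPM in Col-0 (log2 fold change 2.35, SE 0.17). TH8, a thioredoxin gene, was lower in level but moved as far, with 4.70, 4.59 and 3.56 CPM in emb1579-1 and 0.492 and 0.932 CPM in Col-0. The acyltransferase AACT1 had a log2 fold change of 4.17 and the lipid transfer protein AZI1, of systemic immunity, one of 4.07. Its values were 137, 110 and 103 CPM in emb1579-1 and 3.07 and 10.5 CPM in Col-0, and the call was lost when any single emb1579-1 library was left out (highest adjusted p = 0.114).

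Among the largest increases, the defensin PDF1.2 and the pyrophosphatase PS2 are the textbook reporters of ethylene and jasmonate signalling and of phosphate shortage. PDF1.2 had 5.48, 4.93 and 4.2 CPM in emb1579-1 and 0.369 and 1.14 CPM in Col-0 (log2 fold change 2.64, SE 0.37, edgeR adjusted p = 0.00019). PS2 (AT1G73010) had 17.1, 10 and 8.56 CPM in emb1579-1 and 0.615 and 1.76 CPM in Col-0 (log2 fold change 3.27, SE 0.51, edgeR adjusted p = 0.01). PDF1.2 has near-identical copies, among them PDF1.3, so reads may be shared between them. A part of each promoter is shown, from the reference assembly TAIR10.1 (RefSeq), because it holds the motif that the pathway's transcription factors are known to bind, written in capitals: the GCC-box of ethylene response factors, GCCGCC, in PDF1.2 (chr5:17907769-17907888, minus strand) and the P1BS motif of the phosphate starvation factor PHR1, GNATATNC, in PS2 (chr1:27466479-27466598, minus strand).
PDF1.2: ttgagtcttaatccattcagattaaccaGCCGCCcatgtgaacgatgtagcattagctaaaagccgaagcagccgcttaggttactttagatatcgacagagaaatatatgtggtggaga
PS2: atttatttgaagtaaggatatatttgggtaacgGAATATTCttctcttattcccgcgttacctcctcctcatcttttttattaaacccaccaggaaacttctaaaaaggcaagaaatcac
Both stretches lie 250 to 131 bases before the start of transcription. A GCC-box on either strand occurred in 1.89% of the 250-base promoters of all tested protein-coding genes, in 2.80% of those called higher and in 1.14% of those called lower. P1BS occurred in 5.42%, 6.37% and 6.68% of them in the same order. These matches are descriptions of sequence and not evidence of binding.

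Among called genes with a symbol, the 6 largest gains in CPM included a catalase, a peroxidase and glycine-rich proteins. CAT3, a catalase, had 2856, 2678 and 2478 CPM in emb1579-1 and 1657 and 1573 CPM in Col-0 (log2 fold change 0.73, SE 0.11, edgeR adjusted p = 0.00026). The peroxidase PRXR1 had 2340.2, 2097 and 2209 CPM in emb1579-1 against 1602 and 1459 CPM in Col-0 (log2 fold change 0.53). GRP3S, a short glycine-rich protein, had 1549, 1055 and 1185 CPM in emb1579-1 and 455 and 352 CPM in Col-0 (log2 fold change 1.65, SE 0.18). Its neighbour in sequence, GRP-3, rose less, with a log2 fold change of 0.90, and reads may be shared between the 2 genes. Also among the 6 largest gains were PEN3, a plasma membrane transporter of pathogen defence, and TGG2, a myrosinase, which releases mustard oils. Their log2 fold changes were 0.40 and 0.55. The PEN3 call was lost without Col-0 replicate 2, emb1579-1 replicate 2 or emb1579-1 replicate 3 (highest adjusted p = 0.102), and the TGG2 call without Col-0 replicate 2 (0.0522).

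Photosynthesis genes made up 5 of the 6 largest losses in CPM under that rule. CA1, a chloroplast carbonic anhydrase, had 2700.4, 2184 and 2231 CPM in emb1579-1 and 3676 and 3460.4 CPM in Col-0 (log2 fold change -0.59, SE 0.11, edgeR adjusted p = 0.0022). Its relative CA2, named from the list of shoot markers and not counted among these losses, had a log2 fold change of -0.72. CA1 overlaps another gene of the same strand. PSAF and LHCA3, a subunit and an antenna protein of photosystem I, had log2 fold changes of -0.47 and -0.44, and each lost its call without emb1579-1 replicate 3 (adjusted p = 0.0579 and 0.0657). PSBR of photosystem II and RBCS3B, a small subunit of Rubisco with near-identical copies, had log2 fold changes of -0.38 and -0.39. The PSBR call was lost without Col-0 replicate 1, emb1579-1 replicate 2 or emb1579-1 replicate 3 (highest adjusted p = 0.188), and the RBCS3B call without any library other than emb1579-1 replicate 1 (highest adjusted p = 0.244). The sixth was PYK10, the main beta-glucosidase of root endoplasmic reticulum bodies, with 1555, 1189 and 1215 CPM in emb1579-1 and 2652 and 2209 CPM in Col-0 (log2 fold change -0.88, SE 0.13). PYK10 also overlaps a gene of the opposite strand.

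Under the same rule, the 10 lowest fold changes included cytochrome P450s, a terpene synthase, MADS-box factors and a root cell wall protein. TPS03, a terpene synthase that makes the volatile ocimene, had 0.548, 0.822 and 0.238 CPM in emb1579-1 and 8.98 and 12.9 CPM in Col-0 (log2 fold change -4.31, SE 0.31, edgeR adjusted p = 7.1e-07). CYP78A8, of a cytochrome P450 subfamily known for effects on organ size, had 1.1, 0.753 and 0.555 CPM in emb1579-1 and 8.61 and 7.82 CPM in Col-0 (log2 fold change -3.34, SE 0.27). CYP714A1, of a subfamily that inactivates gibberellins, had 1.41, 0.822 and 1.27 CPM in emb1579-1 and 5.96 and 5.64 CPM in Col-0 (log2 fold change -2.32, SE 0.28). In all 3 genes the groups were far apart. AGP30, a root arabinogalactan protein, and BGLU7, a beta-glucosidase, had log2 fold changes of -2.43 (SE 0.30) and -2.38 (SE 0.21). MLP329 was the most abundant of these genes, with 23.4, 12.5 and 11.0 CPM in emb1579-1 and 121 and 96.4 CPM in Col-0. Its call (log2 fold change -2.80, SE 0.38) was lost without Col-0 replicate 1, Col-0 replicate 2 or emb1579-1 replicate 2 (highest adjusted p = 0.112), and it has a near copy, MLP328.

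**Figure D2:**
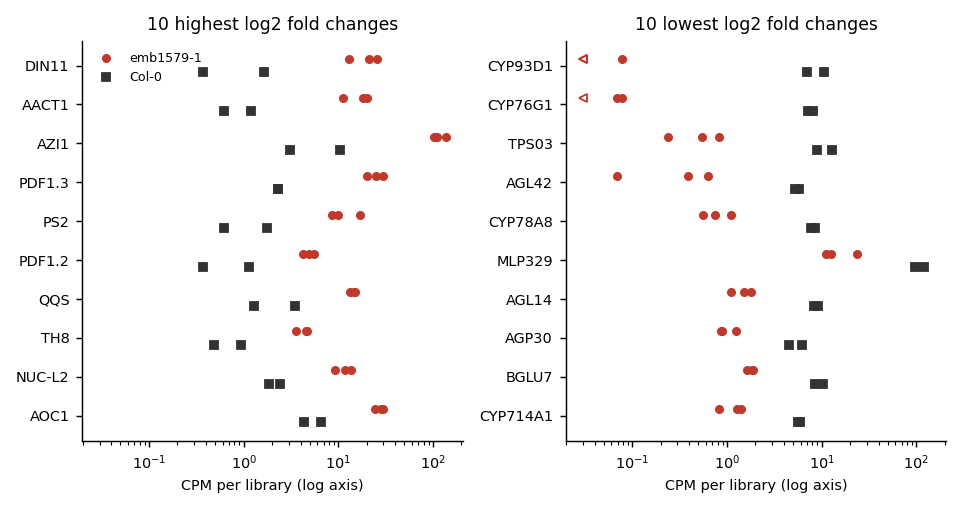
CPM in each library (log axis) of the 10 genes with the highest and the 10 with the lowest log2 fold change under the rule for named genes, with emb1579-1 libraries as red circles above the Col-0 libraries as dark squares. Open triangles at the left edge, drawn at 0.03 CPM, mark libraries with 0 counts. CYP93D1 and CYP76G1 lie below 0.08 CPM in every emb1579-1 library, with some libraries at the edge, and between 7.04 and 10.6 CPM in Col-0.

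Some transcripts were almost absent from emb1579-1. Under a rule set after the values were seen, with no more than 2 counts in the sum of 3 emb1579-1 libraries and at least 1 CPM in both Col-0 libraries, 7 loci qualified. CYP93D1 (AT5G06900) had 1, 0 and 0 counts in emb1579-1 and 172 and 136 counts in Col-0. Scaled to depth, its level in emb1579-1 was 0.289% of that in Col-0, with an exact 95% interval of 0.00729% to 1.62% that covers counting error only. CYP712A2 (AT5G06905) had 1, 0 and 0 counts in emb1579-1 and 55 and 56 in Col-0, and CYP76G1 (AT3G52970) 1, 1 and 0 counts against 133 and 140. All 3 are cytochrome P450 genes, and none overlaps another annotated gene. The other 4 were AT1G15540, described as a dioxygenase-like protein, AT1G20400, AT2G05995, a non-coding RNA, and the pseudogene AT4G08109, all between 1.17 and 2.33 CPM in the Col-0 libraries. In the other direction, no locus had at least 1 CPM in every emb1579-1 library and no more than 2 counts in the sum of both Col-0 libraries. Col-0 replicate 2 had a count at 95.1% of nuclear loci, with a median of 5 counts at loci seen only there. That limit was therefore hard to meet, and the numbers of loci in the 2 directions cannot be compared. With the limit of 2 counts set on Col-0 replicate 1 alone, 18 loci qualified, of which 8 were called higher. AT2G01422 had 182, 244 and 139 counts in emb1579-1 and 0 and 7 counts in Col-0, AT3G29633 51, 72 and 55 counts against 1 and 3, and AT2G18190 69, 65 and 51 counts against 0 and 6. All 3 calls were kept when any single library was left out.

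CYP93D1 and CYP712A2 are direct neighbours on chromosome 5 (2136002 to 2137941 and 2138286 to 2140078, both on the minus strand), and the genes on either side of them were not lower. The next tested gene on one side, PGIP2, an inhibitor of fungal pectin-degrading enzymes, had 18.0, 22.1 and 21.4 CPM in emb1579-1 and 16.6 and 14.4 CPM in Col-0 (log2 fold change 0.41, SE 0.13, edgeR adjusted p = 0.042). Its call was lost without Col-0 replicate 2, emb1579-1 replicate 2 or emb1579-1 replicate 3 (highest adjusted p = 0.32). On the other side ATJ6, a DnaJ co-chaperone, had 18.8, 16.6 and 17.6 CPM in emb1579-1 and 16.6 and 16.4 CPM in Col-0 (log2 fold change 0.10, not called). A run of 5 pseudogenes on chromosome 4, from AT4G08109 to AT4G08100, was lower as a block, with log2 fold changes of -4.93 to -1.90. The adjacent pseudogene AT4G08110 was the exception, with 27.5, 27.7 and 28.2 CPM in emb1579-1 and 33.8 and 28.4 CPM in Col-0 (log2 fold change -0.16, not called). Another block, of 4 neighbouring loci from AT3G21010 to AT3G21040 on chromosome 3, was higher, with log2 fold changes of 0.96 to 2.39. In that block AT3G21010, AT3G21020 and AT3G21030 lost their calls without emb1579-1 replicate 3, AT3G21010 also without Col-0 replicate 2 and AT3G21020 also without Col-0 replicate 1 (highest adjusted p = 0.0803), whereas AT3G21040 kept its call in all 5 fits.

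**Figure D3:**
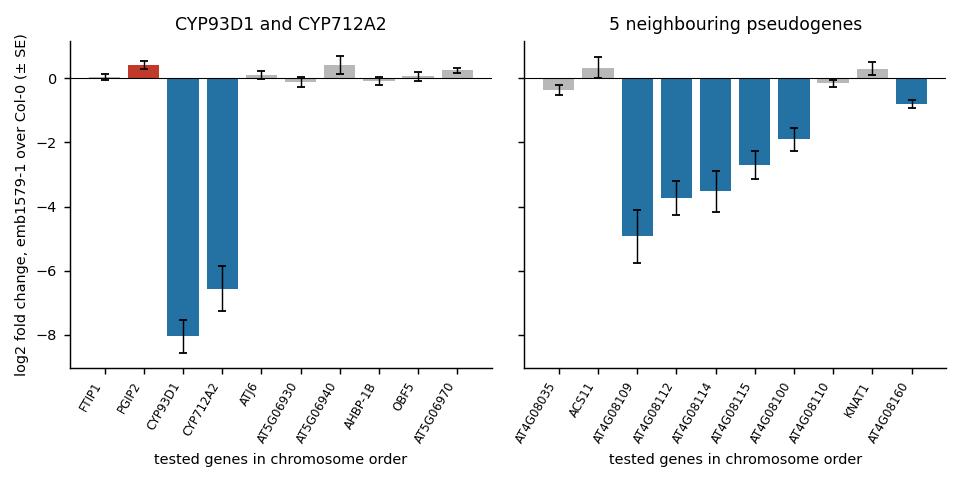
Log2 fold change of emb1579-1 over Col-0 (bars, with SE) for tested genes in chromosome order around CYP93D1 and CYP712A2 (left) and around 5 neighbouring pseudogenes (right), with called genes in red or blue and genes not called in grey. CYP93D1 and CYP712A2 stand at -8.04 and -6.56 between neighbours at 0.41 and 0.10.

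Called genes of the nucleolus and of ribosomes were mostly higher in emb1579-1, while most members of both groups did not pass the test. Of 23 tested genes on a list of nucleolar and translation factors, 8 were higher (34.8%) and none lower. The shares of all tested genes were 7.79% and 8.94%. The list's median log2 fold change was 0.24, against 0.01 over all tested genes. NUC-L2, the stress-inducible form of nucleolin, which organises ribosomal RNA genes, had 13.6, 9.31 and 11.6 CPM in emb1579-1 and 1.84 and 2.43 CPM in Col-0 (log2 fold change 2.41, SE 0.22, edgeR adjusted p = 3.3e-06). NOP56 and FIB2, which belong to the complexes that methylate ribosomal RNA, had log2 fold changes of 0.62 and 0.77, and FIB1, the other fibrillarin, one of 0.41. NOP56 overlaps a gene of the opposite strand, FIB1 and FIB2 each overlap a gene of the same strand, and the fibrillarins resemble each other. The main nucleolin gene, NUC-L1, moved little by comparison, with 520, 549 and 583 CPM in emb1579-1 and 420 and 451 CPM in Col-0, and its call was lost without any library other than emb1579-1 replicate 1 (highest adjusted p = 0.145). The count of higher members ran from 4 without Col-0 replicate 2 to 12 without emb1579-1 replicate 1.

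Ribosomal protein genes had small changes, mostly upward among those called. Of 250 tested genes described as ribosomal proteins, of cytosol, mitochondria and chloroplasts and with some related factors, 57 were higher (22.8%) and 7 lower (2.8%). The shares of all tested genes were 7.79% and 8.94%. The ribosomal protein genes had a median log2 fold change of 0.22. Their summed level was 25000, 27607 and 27813 CPM in emb1579-1 and 23524 and 24779 CPM in Col-0. The genes called lower included the plastid ribosomal proteins GHS1 and emb2184, with log2 fold changes of -0.29 and -0.39. GHS1 lost its call without any library other than emb1579-1 replicate 1 (highest adjusted p = 0.125), and emb2184 without Col-0 replicate 2 (0.0808). These counts depended strongly on single libraries: 21 were higher without Col-0 replicate 1, 27 without emb1579-1 replicate 2, 23 without emb1579-1 replicate 3, 36 without Col-0 replicate 2 and 116 without emb1579-1 replicate 1, and from 1 (without Col-0 replicate 2) to 10 (without emb1579-1 replicate 1) were lower. Ribosomal protein genes come in near-identical copies whose reads may be shared.

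Ribosomal protein promoters are known for site II motifs, bound by TCP factors in dividing cells, and they are given here for that reason. AT5G58420, which codes for a ribosomal protein of the small subunit, had 143, 156 and 141 CPM in emb1579-1 and 99.9 and 105 CPM in Col-0 (log2 fold change 0.51, SE 0.09, edgeR adjusted p = 0.00095). The 120 bases before its start (chr5:23619339-23619458, plus strand, TAIR10.1 from RefSeq) are shown as an example, with site II motifs on either strand in capitals, TGGGCC or TGGGCT and their reverse complements.
AT5G58420: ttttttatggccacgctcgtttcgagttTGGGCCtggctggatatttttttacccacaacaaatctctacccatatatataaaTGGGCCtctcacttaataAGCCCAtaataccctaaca
A site II motif occurred in 60.4% of the 250-base promoters of the tested ribosomal protein genes, in 68.4% of those called higher and in 22.1% of all tested protein-coding promoters. Over all genes the share was 21.6% among those called higher and 14% among those called lower, and 11.4% and 6.26% among those that changed at least 2-fold in each direction. No test was made of these shares.

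**Figure D4:**
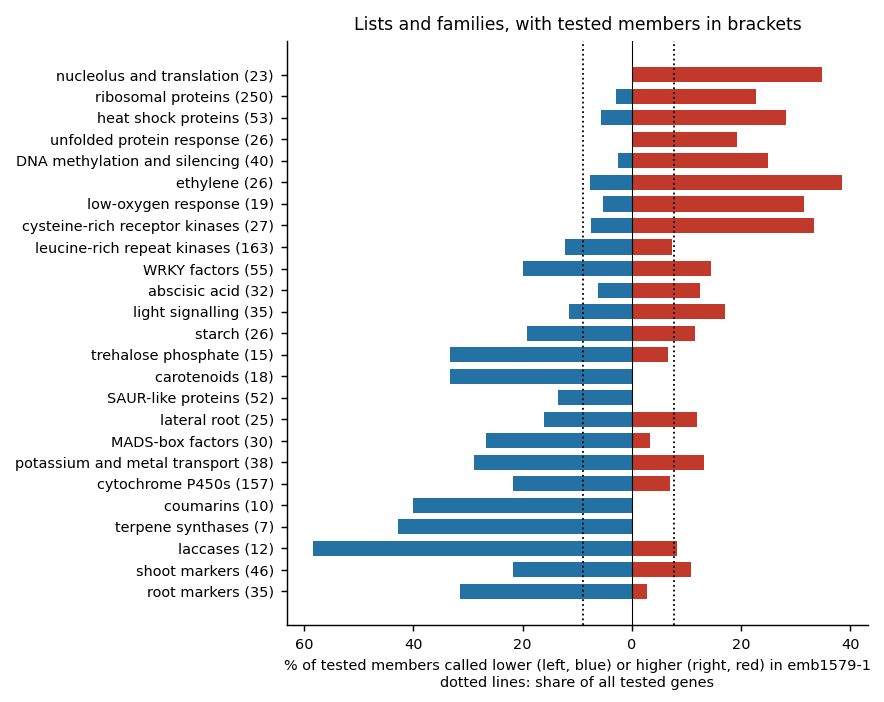
Share of the tested members of each list or family called higher (right, red) or lower (left, blue) in emb1579-1, with the number of tested members in brackets and the shares of all tested genes, 7.79% and 8.94%, as dotted lines. Ribosome, chaperone, silencing, ethylene and cysteine-rich receptor kinase groups lean to the right, leucine-rich repeat kinases lean slightly to the left, and laccases, terpene synthases, coumarin genes and root markers to the left.

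Called chaperones were also mostly higher. Of 53 tested heat shock protein genes, 15 were higher (28.3%) and 3 lower (5.66%), against 7.79% and 8.94% of all tested genes. The family's median log2 fold change was 0.20. HSP60-2, a mitochondrial chaperonin, had 123, 125 and 137 CPM in emb1579-1 and 69.5 and 79.0 CPM in Col-0 (log2 fold change 0.79, SE 0.09, edgeR adjusted p = 4.1e-05). Its relative HSP60 and the mitochondrial mtHsc70-1 had log2 fold changes of 0.58 and 0.57, and the cytosolic HSP81-2, of the HSP90 family with near-identical copies, 0.56. In HSP60-2 every emb1579-1 library lay well above both Col-0 libraries. The count of higher members ran from 9 without Col-0 replicate 1 to 17 without emb1579-1 replicate 1, and no member was called lower without Col-0 replicate 2. Of 26 tested genes of the unfolded protein response, which relieves stress in the endoplasmic reticulum, 5 were called higher (19.2%). Among them were the chaperones BIP1 (log2 fold change 0.31) and CRT1b (0.32). That count was 0 without Col-0 replicate 1 or without emb1579-1 replicate 3, 1 without emb1579-1 replicate 2 and 6 without emb1579-1 replicate 1, and both named calls were among those lost (highest adjusted p = 0.222 for BIP1 and 0.127 for CRT1b).

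Among genes of DNA methylation and transcriptional silencing, those called were mostly higher. Of 40 tested members, 10 were higher (25%) and 1 lower (2.5%), against 7.79% and 8.94% of all tested genes. The list had a median log2 fold change of 0.23. Its summed level was 1849, 1906 and 1958 CPM in emb1579-1 against 1637 and 1631 CPM in Col-0. NRPD1A, the largest subunit of RNA polymerase IV, which starts RNA-directed DNA methylation, had 18.9, 21.8 and 17 CPM in emb1579-1 and 10.9 and 12.2 CPM in Col-0 (log2 fold change 0.74, SE 0.14, edgeR adjusted p = 0.0019). IDN2, an RNA-binding protein of the same pathway, had 55.9, 54.8 and 61.7 CPM in emb1579-1 and 41.0 and 42.8 CPM in Col-0 (log2 fold change 0.46, SE 0.09, edgeR adjusted p = 0.0029). Both calls were kept when any single emb1579-1 library was left out. The maintenance methyltransferases MET1, for CG sites, and CMT2, for other contexts, had log2 fold changes of 0.30 and 0.31, and both calls were lost without any library other than emb1579-1 replicate 1 (highest adjusted p = 0.236 and 0.197). DML2, which removes DNA methylation, was among the higher members, with a log2 fold change of 0.38 (SE 0.10), and lost its call without Col-0 replicate 2, emb1579-1 replicate 2 or emb1579-1 replicate 3 (highest adjusted p = 0.156). DML3, another DNA demethylase, was the member called lower, at 2.82, 2.53 and 3.01 CPM in emb1579-1 against 4.24 and 5.95 CPM in Col-0, and its call was lost without Col-0 replicate 2, emb1579-1 replicate 2 or emb1579-1 replicate 3 (highest adjusted p = 0.24). The number of higher members was 2 without Col-0 replicate 2, 3 without emb1579-1 replicate 3, 4 without Col-0 replicate 1, 5 without emb1579-1 replicate 2 and 17 without emb1579-1 replicate 1.

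Among ethylene genes, members of synthesis, perception and response were called higher. Of 26 tested members, 10 were higher (38.5%) and 2 lower (7.69%), against 7.79% and 8.94% of all tested genes. The list's median log2 fold change was 0.34. ACS7, an enzyme of ethylene synthesis, had 9.78, 8.77 and 8.79 CPM in emb1579-1 and 1.17 and 2.48 CPM in Col-0 (log2 fold change 2.28, SE 0.25, edgeR adjusted p = 2.7e-05). Among the receptors, which repress the pathway until ethylene binds, ETR2 had 18.0, 20.4 and 19.2 CPM in emb1579-1 and 10.6 and 12.5 CPM in Col-0 (log2 fold change 0.73, SE 0.13), and ERS1, which overlaps a gene of the opposite strand, had a log2 fold change of 0.59. Downstream, EBF2, an F-box protein that removes the factor EIN3 and also overlaps an opposite gene, had a log2 fold change of 0.54, and the response factors ERF2 and TEM1 had 0.79 and 0.63. ERF2 had 132, 114 and 134 CPM in emb1579-1 and 78.3 and 67.5 CPM in Col-0, so the groups were well apart. ACS6, another synthesis enzyme, went the other way, with a log2 fold change of -0.38, and its call was lost without Col-0 replicate 2 or emb1579-1 replicate 3 (highest adjusted p = 0.0884). The higher count ran from 7 without Col-0 replicate 2 to 14 without emb1579-1 replicate 1, and no member was lower without Col-0 replicate 2 or emb1579-1 replicate 3. On a list of 19 tested genes of the core response to low oxygen, which shares ETR2, 6 were higher (31.6%) and 1 lower (5.26%). Its median log2 fold change was 0.41. EBP, an ethylene response factor of low-oxygen and stress responses, had 137, 132 and 142 CPM in emb1579-1 and 78.1 and 58.5 CPM in Col-0 (log2 fold change 1.01, SE 0.11), and its relative RAP2.2 had a log2 fold change of 0.66. That count ran from 4 without Col-0 replicate 1, emb1579-1 replicate 2 or emb1579-1 replicate 3 to 10 without emb1579-1 replicate 1, and the gene called lower was not called without Col-0 replicate 2.

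For abscisic acid, the stress hormone, the called genes were 3 receptors, phosphatases and a degrading enzyme. Of 32 tested members, 4 were higher (12.5%) and 2 lower (6.25%), against 7.79% and 8.94% of all tested genes. The median log2 fold change was 0.04. The receptors PYL4, PYL5 and PYL6 had log2 fold changes of 0.56, 0.62 and 0.94. PYL6 had 10.9, 16.5 and 14.6 CPM in emb1579-1 and 7.93 and 6.73 CPM in Col-0. PP2CA, a phosphatase that represses the pathway and is itself blocked by receptors, had 108, 93.8 and 98.1 CPM in emb1579-1 and 129 and 149 CPM in Col-0 (log2 fold change -0.48, SE 0.09, edgeR adjusted p = 0.0028). HAB1, another phosphatase of the list, went the other way, with 59.5, 51.1 and 53.1 CPM in emb1579-1 and 44.9 and 42.7 CPM in Col-0 (log2 fold change 0.32, SE 0.09, edgeR adjusted p = 0.03). The lower count was 1 without Col-0 replicate 2 or emb1579-1 replicate 3 and 7 without emb1579-1 replicate 1.

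Among MADS-box factors, which control flowering time, floral organs and parts of root growth, most of those called were lower. Of 30 tested family members out of 120, 8 were lower (26.7%) and 1 higher (3.33%), against 8.94% and 7.79% of all tested genes. AGL42, known from the root quiescent centre, had 0.391, 0.0685 and 0.634 CPM in emb1579-1 and 5.72 and 5.18 CPM in Col-0 (log2 fold change -3.92, SE 0.42, edgeR adjusted p = 2.1e-05). AGL14, a root regulator of auxin transport, had 1.80, 1.51 and 1.11 CPM in emb1579-1 and 8.30 and 9.27 CPM in Col-0 (log2 fold change -2.57, SE 0.23, edgeR adjusted p = 3.1e-06). Their relatives AGL19 and AGL20, better known as SOC1, both promoters of flowering, had log2 fold changes of -2.30 and -1.07. AGL20 was steady between libraries, at 20.1, 20.3 and 20.1 CPM in emb1579-1 and 42.8 and 41.8 CPM in Col-0. The only member called higher was FLC, the floral repressor that acts on AGL20, with 5.09, 5.62 and 5.70 CPM in emb1579-1 and 0.553 and 0.880 CPM in Col-0 (log2 fold change 2.90, SE 0.31, edgeR adjusted p = 1.4e-05). FLC overlaps antisense transcription, and without a stated strand setting the strands cannot be told apart. FPA, an RNA-binding protein of the autonomous pathway that lowers FLC, had a log2 fold change of 0.39 and also overlaps an opposite gene. The lower count ran from 5 without Col-0 replicate 2 to 10 without Col-0 replicate 1, and the higher count reached 3 without emb1579-1 replicate 1.

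Light signalling genes moved both ways. Of 35 tested members, 6 were higher (17.1%) and 4 lower (11.4%), against 7.79% and 8.94% of all tested genes. The median log2 fold change was -0.07. HY5, the factor that promotes growth in light, had 9.94, 10.3 and 9.90 CPM in emb1579-1 and 18.1 and 17.8 CPM in Col-0 (log2 fold change -0.84, SE 0.13, edgeR adjusted p = 0.00033). PIF3, a factor of growth in the dark that light removes, had 24.2, 21.8 and 20.0 CPM in emb1579-1 and 12.4 and 11.4 CPM in Col-0 (log2 fold change 0.88, SE 0.13, edgeR adjusted p = 0.00025). BBX28, a repressor of HY5 activity, had a log2 fold change of 0.72. The higher count fell to 2 without Col-0 replicate 2, and the lower count to 1 without emb1579-1 replicate 3. COR27, a cold-induced gene of the circadian clock that is known to act with HY5, had 28.6, 23.8 and 25.0 CPM in emb1579-1 and 57.9 and 55.1 CPM in Col-0 (log2 fold change -1.13, SE 0.10, edgeR adjusted p = 2.1e-06).

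Carbon metabolism showed a mixed picture. Of 26 tested starch genes, 3 were higher (11.5%) and 5 lower (19.2%), against 7.79% and 8.94% of all tested genes. GBSS1, the granule-bound synthase that makes amylose and is under clock control, had 46.1, 49.6 and 45.4 CPM in emb1579-1 and 11.7 and 14 CPM in Col-0 (log2 fold change 1.87, SE 0.11, edgeR adjusted p = 5.2e-08). APL3, a large subunit of ADP-glucose pyrophosphorylase, had a log2 fold change of 0.83. In contrast LSF2, a phosphatase of starch breakdown, had 41.3, 38.5 and 38.8 CPM in emb1579-1 and 60.5 and 61.5 CPM in Col-0 (log2 fold change -0.63, SE 0.09, edgeR adjusted p = 0.00015), and SS4, which starts starch granules, one of -0.46. The lower count was 3 without Col-0 replicate 1, emb1579-1 replicate 2 or emb1579-1 replicate 3 and 8 without emb1579-1 replicate 1, and the higher count 2 without emb1579-1 replicate 3. Of 15 tested trehalose phosphate genes, which signal sugar status, 5 were lower (33.3%) and 1 higher (6.67%). TPS11 had a log2 fold change of -0.70 and TPS5, the lone higher member, 0.46. That lower count fell to 2 without Col-0 replicate 2, and the higher one rose to 3 without emb1579-1 replicate 1. Of 18 tested carotenoid genes, 6 were lower (33.3%) and none higher. NPQ1, the enzyme of the xanthophyll cycle that protects leaves from strong light, had 123, 117 and 114 CPM in emb1579-1 and 195 and 175 CPM in Col-0 (log2 fold change -0.65, SE 0.09, edgeR adjusted p = 0.00012), and it overlaps an opposite gene. The carotenoid count was 1 without Col-0 replicate 1, 2 without emb1579-1 replicate 3 and 7 without emb1579-1 replicate 1.

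Root markers were mostly lower among those called. Of 35 tested root markers, 11 were lower (31.4%) and 1 higher (2.86%), with a median log2 fold change of -0.39. Their summed levels were 2144, 1568 and 1601 CPM in emb1579-1 against 3584 and 3037 CPM in Col-0. No marker of the list had 0 counts in all libraries. FAR4 and GPAT5, which make suberin precursors in root cells, had log2 fold changes of -1.68 and -1.34, and FAR4 overlaps an opposite gene. GPAT5 had 4.85, 3.77 and 3.80 CPM in emb1579-1 and 11.5 and 9.47 CPM in Col-0. PHT1;4, a phosphate transporter induced by phosphate shortage, was the lone higher marker, with 30.4, 24.2 and 23.6 CPM in emb1579-1 and 7.93 and 9.84 CPM in Col-0 (log2 fold change 1.55, SE 0.15, edgeR adjusted p = 6.2e-06). The lower count ran from 8 without Col-0 replicate 1 or emb1579-1 replicate 2 to 18 without emb1579-1 replicate 1, and the higher count was 2 without Col-0 replicate 2 or emb1579-1 replicate 1. Of 46 tested shoot markers, 10 were lower (21.7%) and 5 higher (10.9%), against 8.94% and 7.79% of all tested genes. Their median log2 fold change was -0.10, and summed levels were 75840, 66232 and 65589 CPM in emb1579-1 against 82124 and 72158 CPM in Col-0. CER1, an enzyme of leaf wax, had 32.2, 29.7 and 24.6 CPM in emb1579-1 and 46.7 and 50.2 CPM in Col-0 (log2 fold change -0.75, SE 0.11), whereas KCS6, another wax enzyme, had 288, 230 and 220 CPM in emb1579-1 against 167 and 136 CPM in Col-0 (log2 fold change 0.70, SE 0.13). The shoot counts ran from 4 lower without emb1579-1 replicate 3 to 15 without emb1579-1 replicate 1, and from 1 higher without Col-0 replicate 2 to 6 without emb1579-1 replicate 1. The part of the root markers' difference in the families that follow was not tested.

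Laccases, copper oxidases that join lignin and flavonoid units in cell walls, had the largest share of lower members among the groups described here. Of 12 tested, 7 were lower (58.3%) and 1 higher (8.33%), against 8.94% and 7.79% of all tested genes. The family had a median log2 fold change of -0.96. Its summed levels were 112, 82.2 and 80.2 CPM in emb1579-1 against 187 and 171 CPM in Col-0. LAC3, known from the Casparian strip region of the endodermis, had 19.6, 16.4 and 15.2 CPM in emb1579-1 and 35.3 and 32.5 CPM in Col-0 (log2 fold change -0.99, SE 0.12, edgeR adjusted p = 4.4e-05). LAC5 and LAC2 had log2 fold changes of -1.17 and -2.23. LAC7 was the most abundant of the called laccases in Col-0, with 30.1, 17.5 and 19.9 CPM in emb1579-1 and 86.5 and 63.6 CPM in Col-0 (log2 fold change -1.74, SE 0.28), and lost its call without emb1579-1 replicate 3 (adjusted p = 0.0655). LAC8, the higher member, had a log2 fold change of 0.77 and overlaps an opposite gene. The lower count ran from 5 without Col-0 replicate 2 to 8 without emb1579-1 replicate 1.

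**Figure D5:**
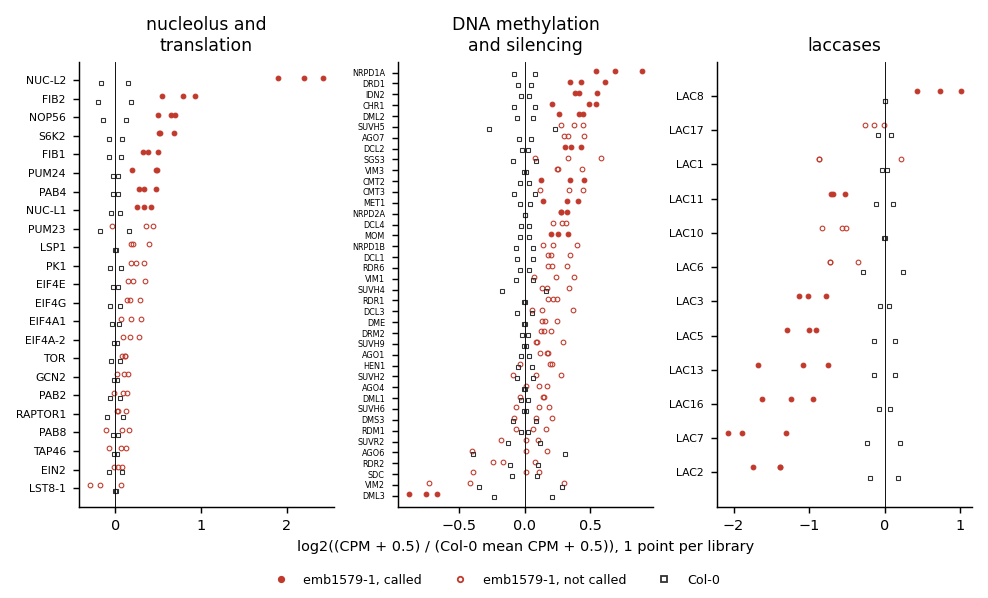
Level of every tested member of the nucleolar and translation list (23 genes), the silencing list (40 genes) and the laccase family (12 genes), as log2 of CPM + 0.5 relative to the Col-0 mean, with 1 point per library. Red circles are emb1579-1 libraries, filled where the gene was called, and dark squares are Col-0 libraries. Called members of the left and middle panels lie to the right of Col-0 apart from DML3, and called laccases apart from LAC8 lie to the left.

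Cytochrome P450s, oxidases of hormones, waxes and defence compounds, had more lower than higher members. Of 157 tested, 34 were lower (21.7%) and 11 higher (7.01%), against 8.94% and 7.79% of all tested genes. Besides the near-silent genes above, CYP71B12 had 7.28, 6.16 and 7.05 CPM in emb1579-1 and 21.4 and 22.1 CPM in Col-0 (log2 fold change -1.67, SE 0.13, edgeR adjusted p = 8.7e-07). CYP710A1 and CYP710A2, neighbouring genes of sterol desaturases, moved in opposite directions. CYP710A1 had 5.63, 4.04 and 3.41 CPM in emb1579-1 and 11.1 and 9.42 CPM in Col-0 (log2 fold change -1.23, SE 0.20), and CYP710A2 24.9, 21.9 and 21.9 CPM in emb1579-1 against 11.6 and 11.0 CPM in Col-0 (log2 fold change 1.02, SE 0.12). CYP79F2, an enzyme of aliphatic glucosinolate synthesis, had a log2 fold change of 0.64. The counts ran from 24 lower without emb1579-1 replicate 2 or 3 to 46 without emb1579-1 replicate 1. Of 7 tested terpene synthases, 3 were lower, from 1 without Col-0 replicate 2 to 6 without Col-0 replicate 1.

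Genes for root secretion and for mineral transport followed. Of 10 tested genes of coumarins, phenolics that roots secrete to take up iron, 4 were lower (40%) and none higher. BGLU21, a scopolin beta-glucosidase, had 30.1, 24.0 and 20.8 CPM in emb1579-1 and 85.1 and 79.0 CPM in Col-0 (log2 fold change -1.71, SE 0.12, edgeR adjusted p = 3e-06), and the exporter ABCG37 had a log2 fold change of -0.61. Of 38 tested genes of potassium and metal transport, 11 were lower (28.9%) and 5 higher (13.2%), against 8.94% and 7.79% of all tested genes. HMA3 had a log2 fold change of -1.79, and the neighbouring gene HMA2, which codes for a pump that loads zinc into the xylem, one of 0.60. HMA2 had 23.2, 23.49 and 24.2 CPM in emb1579-1 and 16.5 and 14.7 CPM in Col-0, and HMA3 0.783, 0.685 and 0.555 CPM in emb1579-1 against 2.28 and 2.43 CPM in Col-0. Among zinc transporters, ZIP2 had a log2 fold change of -0.93 and ZIP5 0.90. PCR2, a zinc exporter, had a log2 fold change of -1.59. The metal counts ran from 7 lower without Col-0 replicate 1 or emb1579-1 replicate 3 to 16 without emb1579-1 replicate 1, and from 2 higher without emb1579-1 replicate 3 to 8 without emb1579-1 replicate 1. NRT1.5, which loads nitrate into the root xylem, had 91.6, 87.2 and 87.0 CPM in emb1579-1 and 307 and 254 CPM in Col-0 (log2 fold change -1.66, SE 0.10, edgeR adjusted p = 3.6e-08), and overlaps an opposite gene.

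Receptor kinases and WRKY transcription factors had called members in both directions. Of 27 tested cysteine-rich receptor-like kinases, 9 were higher (33.3%) and 2 lower (7.41%). CRK30 had 8.14, 8.56 and 7.53 CPM in emb1579-1 and 3.01 and 2.48 CPM in Col-0 (log2 fold change 1.56, SE 0.20, edgeR adjusted p = 8.3e-05), and CRK12 had a log2 fold change of 1.64. CRK25 was lower, with 8.76, 7.53 and 8.32 CPM in emb1579-1 and 21.4 and 17.5 CPM in Col-0 (log2 fold change -1.24), and overlaps an opposite gene. Many members of the family lie in tandem and resemble each other. The lower count ran from 1 without Col-0 replicate 2, emb1579-1 replicate 2 or emb1579-1 replicate 3 to 8 without Col-0 replicate 1. Among the larger family of receptor-like kinases with leucine-rich repeats, 12 of 163 tested were higher (7.36%) and 20 lower (12.3%). Of all tested genes, 7.79% were higher and 8.94% lower, so the higher share was near that of all genes. FLS2, the receptor of bacterial flagellin, had 28.9, 33.8 and 30.3 CPM in emb1579-1 and 18.1 and 17.1 CPM in Col-0 (log2 fold change 0.82, SE 0.11, edgeR adjusted p = 0.00014), and overlaps an opposite gene. AT5G59680 had 2.43, 2.74 and 2.61 CPM in emb1579-1 and 15.3 and 14.2 CPM in Col-0 (log2 fold change -2.50, SE 0.17, edgeR adjusted p = 1.7e-07). The higher count fell to 7 without emb1579-1 replicate 3, and the lower count rose to 33 without Col-0 replicate 1. Of 55 tested WRKY factors, which bind the W-box of defence genes, 8 were higher (14.5%) and 11 lower (20%). WRKY18 and WRKY60, related factors that act together in basal defence, had log2 fold changes of 1.21 and 0.98. WRKY18 had 29.6, 34.8 and 36.6 CPM in emb1579-1 and 13.1 and 15.9 CPM in Col-0. WRKY72 had 6.65, 4.31 and 5.31 CPM in emb1579-1 and 13 and 10.9 CPM in Col-0 (log2 fold change -1.15, SE 0.18), so the family had clear members on both sides. The lower count fell to 5 without Col-0 replicate 2, emb1579-1 replicate 2 or emb1579-1 replicate 3. A W-box (TTGACC or TTGACT, either strand) occurred in 28.3% of all tested protein-coding promoters. The share was 30.04% among all genes called higher and 29.62% among all called lower, both near that of all tested promoters. It was 35.7% among genes at least 2-fold higher and 37.4% among those at least 2-fold lower.

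Growth genes also moved both ways. Of 52 tested SAUR-like genes, small auxin-induced genes of cell expansion, 7 were lower (13.5%) and none higher, against 8.94% and 7.79% of all genes. The SAUR-like count was 3 lower without emb1579-1 replicate 2 or 3. AT5G50760 had 7.28, 5.41 and 5.23 CPM in emb1579-1 and 18.3 and 14.7 CPM in Col-0 (log2 fold change -1.46, SE 0.17, edgeR adjusted p = 3.4e-05). On a list of 26 tested signalling peptide genes, 2 were lower (7.69%) and none higher, a lower share near that of all genes. They were RALF1 and PSK4, precursors of secreted peptides that restrain and promote cell growth, with log2 fold changes of -0.92 and -1.02. Of 25 tested genes on a list of lateral root formation, 3 were higher (12%) and 4 lower (16%). The shares of all tested genes were 7.79% and 8.94%. Among the fits that left out an emb1579-1 library, the higher count was 2 without replicate 2 or 3 and 3 without replicate 1. IAA28, a repressor of auxin response in lateral root founder cells, had 22.0, 18.3 and 21.6 CPM in emb1579-1 and 34.7 and 31.5 CPM in Col-0 (log2 fold change -0.68, SE 0.11, edgeR adjusted p = 0.00059). The others called lower were MYB77, AGL21 and AUX1. LRP1, a marker of lateral root primordia, had 15.5, 18.9 and 21.5 CPM in emb1579-1 and 7.99 and 8.33 CPM in Col-0 (log2 fold change 1.19, SE 0.15, edgeR adjusted p = 9.3e-05). AIL6, a PLETHORA-type factor of stem cell regions, had 19.8, 22.1 and 24.6 CPM in emb1579-1 and 8.98 and 11.3 CPM in Col-0 (log2 fold change 1.12, SE 0.14), and overlaps an opposite gene.

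Calls also differed by kind of gene. Single-exon genes were called lower in 11.7% of 2986 cases and genes with at least 10 exons in 6.18% of 4207, whereas the shares called higher were alike at 7.10% and 7.32%. Genes with single exons were shorter and less expressed. Among coding genes in the highest 25% by expression, 14.4% of 353 single-exon genes and 10.3% of 4671 others were lower, and 14.4% and 12.1% were higher. In the lowest 25%, 9.70% of 1196 single-exon genes and 9.37% of 3532 others were lower, and 2.93% and 3.91% were higher. By exon length, 10.7% of the shortest 25% and 6.91% of the longest were lower. The share called higher grew with expression, at 12.5% in the highest 25% and 3.60% in the lowest. The share called lower was 10.6% in the highest 25% and 9.55% in the lowest. That lowest 25% held 381 of the 550 genes at least 2-fold lower and 148 of the 311 at least 2-fold higher. Of 171 tested pseudogenes, 20 were higher (11.7%) and 23 lower (13.5%), against 7.79% and 8.94% of all tested genes. Of 97 ncRNA genes, 3 were higher (3.09%) and 13 lower (13.4%). The 5 chromosomes were alike, with 7.44% to 8.14% of genes higher and 8.59% to 9.85% lower.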

How the data were processed

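RNA sequencing of Arabidopsis thaliana seedlings was deposited as raw counts, 1 column for each library. FastQC, HISAT2, Cufflinks, Cuffdiff and the build TAIR10 appear in the submitters' processing notes, with no version. The counting tool, its strand setting and its treatment of shared reads: not given in the sources used here. In all, 3 columns matched no sample by name and were not used. Of 33602 loci, 32835 matched the RefSeq annotation of TAIR10.1.

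Genes were tested in R 4.3.3 with edgeR 4.0.16 (quasi-likelihood test, robust fit, trimmed-mean normalization, edgeR's expression filter, Benjamini-Hochberg adjustment over 20230 genes, threshold 0.05) in 5 libraries with genotype as the only term, which leaves 3 residual degrees of freedom; organelle genes were left out. DESeq2 1.42.0 served as an alternative, with other scalings, filters, a replicate block and each library left out in turn. The common biological coefficient of variation was 0.0946. Intervals cover counting error only, and the p-values measure the spread between these samples, which may be technical.

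The named genes were EMB1579, the 10 highest and 10 lowest fold changes among called genes with a symbol, at least 2 CPM and no overlap, the 6 largest gains and losses in CPM, and the called members of each list or family with the smallest adjusted p. Other members named beside them, and the loci on the near-silent list and in runs of neighbours, were chosen after their values were seen. The members of 35 gene lists (935 of 1073 entries matched) and 48 families were chosen with earlier results of these data known, and the families, taken from product names, were corrected after values were seen. Promoters were read from the genome by script, 250 bases before the annotated start. The sequence of 1 further promoter is not reported here.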

Additional observations from a re-analysis of the deposited data

Results flagged for a closer look

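The third Col-0 library, which enters no comparison, placed 65.9% of its nuclear counts on genes that overlap a gene of the opposite strand, against 27.6%, 27.5% and 27.6% in the emb1579-1 libraries and 28.3% and 27.9% in the other Col-0 libraries. It was singled out as a signal in data outside the comparison. The cause was not tested.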

How the results depend on the processing

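With Col-0 replicate 3 added, 5 genes were higher and 12 lower, all at least 2-fold, and 1852 genes had an unadjusted p below 0.05. Of 3340 called genes refitted there, 399 changed sign, and among the named genes the log2 fold change became -2.01 for PGIP2, -0.17 for PYL5, 0.051 for PP2CA, 0.10 for PSAF, 0.11 for LHCA3, 0.18 for RBCS3B, 0.17 for PSBR, 0.15 for emb2184, 0.23 for GHS1, 0.054 for ACS6, 0.10 for SS4 and 0.036 for AT4G08110; the cause was not tested. That of EMB1579 became 0.41 there and 0.0025 with no expression filter, and it was not called in any fit. Leaving out each library in turn gave 930 to 2265 higher and 1013 to 2829 lower genes, and 246 to 371 and 390 to 2196 at least 2-fold. The last value came without Col-0 replicate 1, when only 1040 of the 1809 lower genes were shared. DESeq2 gave 1829 and 1899, relative log expression factors 1531 and 1824, a filter of 1 CPM 1547 and 1803, no filter 2176 and 2172, organelle genes kept 1511 and 1874, and no overlapping genes 1108 and 1305. The median log2 fold change was -0.18 with DESeq2 and -0.16 without a filter, over 31896 genes, against 0.01 over 20230. No called gene was called the opposite way in any of these fits.

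The labels number the replicates alike in both genotypes, but nothing says that a number marks a shared batch. Same-numbered libraries deviated together only weakly (r = 0.09 for replicate 1 and 0.06 for replicate 2). A differently numbered pair, emb1579-1 replicate 3 and Col-0 replicate 2, reached 0.05. Deviations of 2 Col-0 libraries mirror each other, so these values are not separate checks. A fit with the replicate block, in which emb1579-1 replicate 3 has no partner, called 1418 higher and 1441 lower genes, 272 and 410 of them at least 2-fold. Of the named genes, PGIP2, AZI1, MET1, CMT2, DML2 and AT3G21010 lost their calls in it. Depth limits the near-silent loci, where 1 count is 0.0685 to 0.0792 CPM in emb1579-1.

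The fit that adds the emb1579-3 libraries was not run, since their columns matched no label by name.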
